A study of Mus musculus with 11 samples.

Results

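The 10 genes described here encode chemoattractant receptors of leukocytes other than Ccr3, the eotaxin receptor: Ccr1, Cxcr2, Cxcr4, Ptgdr2, Hrh4, Ltb4r1, Fpr1, Fpr2, C5ar1 and C3ar1. They were taken by gene symbol from a table of 55486 genes, and all 10 were found there. The RNA was that of blood eosinophils, sorted from FVB/N mice that bore metastases of mammary tumours, 21 days after treatment began. In the treated group (7 mice, 1 library each) cisplatin, a DNA-crosslinking drug, was given together with anti-PD1 and anti-CTLA4, antibodies that block T cell checkpoints, and in the control group (4 mice, 1 library each) control antibody alone was given. The treated mice differed from the controls in all 3 agents at once, so the share of each agent in a difference cannot be told apart. The sort gate took live leukocytes (CD45+) that were CD3-, CD11b+, Ly6g low and F4/80+ with a high side scatter, and libraries were made with Smart-seq2, a full-length method for small amounts of RNA.

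Chemoattractant receptors are seven-helix proteins coupled mainly to inhibitory G proteins, and their ligands draw leukocytes out of blood and through tissue. Ccr1 binds CC chemokines, Cxcr2 binds the CXC chemokines that recruit neutrophils, and Cxcr4 binds Cxcl12 and holds leukocytes in bone marrow. Ptgdr2 (also CRTH2), Hrh4 and Ltb4r1 bind the lipid and amine mediators prostaglandin D2, histamine and leukotriene B4. Fpr1 and Fpr2 bind formylated peptides of bacteria and mitochondria, and C5ar1 and C3ar1 bind the complement fragments C5a and C3a. In eosinophils CRTH2, the histamine H4 receptor, the platelet-activating factor receptor and both complement receptors are known for migration and activation, while Cxcr2 and the formyl peptide receptors are best known in neutrophils and monocytes.

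Fpr1 and Fpr2 are shown in sequence because they lie head to head on chromosome 17 and were high and low in many of the same libraries. Their annotated starts are 3884 bases apart in GRCm38. The sequences are RefSeq promoter windows of build GRCm38.p6, 300 bases each, at chr17:17883890-17884189 on the minus strand for Fpr1 and chr17:17887574-17887873 on the plus strand for Fpr2. Capitals mark matches to 3 short motifs, searched on both strands. TTNNGNAA is a core bound by C/EBP factors. The PU.1 core was searched as GAGGAA. The site of the erythroid and eosinophil factor Gata1 and its relatives was searched as AGATAA. No 2 matches overlapped.
Fpr1: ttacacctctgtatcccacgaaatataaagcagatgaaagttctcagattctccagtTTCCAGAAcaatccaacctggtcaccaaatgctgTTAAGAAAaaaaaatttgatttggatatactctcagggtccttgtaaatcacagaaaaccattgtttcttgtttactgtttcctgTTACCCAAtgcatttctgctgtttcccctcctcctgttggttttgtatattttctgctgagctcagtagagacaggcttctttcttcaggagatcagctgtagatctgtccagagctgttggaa
Fpr2: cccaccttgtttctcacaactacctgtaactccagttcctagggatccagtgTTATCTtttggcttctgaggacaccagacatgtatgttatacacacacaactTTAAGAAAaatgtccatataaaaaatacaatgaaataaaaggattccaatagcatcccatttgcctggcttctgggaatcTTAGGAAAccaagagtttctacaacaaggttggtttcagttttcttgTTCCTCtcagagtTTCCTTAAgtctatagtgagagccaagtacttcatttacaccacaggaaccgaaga
Each window held 3 matches to TTNNGNAA, and that of Fpr2 held in addition 1 to GAGGAA and 1 to AGATAA. Of 32851 promoters of this length in the table, 40.7% held TTNNGNAA, 28.3% GAGGAA and 11.2% AGATAA. Among the 9 detected receptors 6, 5 and 2 held them in that order, and Hrh4, without counts, was not searched. These matches describe letters in the window and say nothing on binding.

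Total counts per library were 5356118 to 8016658 in treated and 3733156 to 6721060 in control libraries. Levels are given as counts per 1000000 (CPM) after scaling by the trimmed mean of M values (TMM). Control 3 and control 4 stood apart, with 28.2% and 20.1% of counts on the 4 haemoglobin genes, against 1.16% to 4.42% in treated libraries and 0.165% to 1.06% in the other controls, and results that rest on them are given with and without them. The 13 eosinophil markers in the table were all detected in each library except treated 3, which had 12 of them and the lowest sum. They summed to 4823 to 13106 CPM across treated and 8529 to 11892 CPM across control libraries. Markers of other blood cells were present in every library. Monocyte and macrophage markers (15 genes) summed to 2212 to 16059 CPM across treated and 890.0 to 19208 CPM across control libraries. Neutrophil markers (14 genes) summed to 4852 to 14380 and 5814 to 16343 CPM, of which Retnlg, a resistin-like gene, made up 69.2% to 95.8%. Retnlg was highest in control 4 (15651 CPM), where 7 of the 14 were detected. It was lowest in control 1 (4201 CPM), the only library with all 14 detected. Where the summed neutrophil level is used below, it is mainly a level of Retnlg. Mpo and Elane, granule genes of immature neutrophils, were at 0 in all libraries but control 1. B cell markers (12 genes) summed to 1064 to 5772 and 636 to 2333 CPM, T and NK cell markers (13 genes) to 29.7 to 81.7 and 29.7 to 189 CPM, and basophil and mast cell markers (9 genes) to 10.2 to 824 and 4.73 to 18.4 CPM. Erythroid markers (10 genes) summed to 12776 to 46978 and 1578 to 443652 CPM, and platelet markers (10 genes) to 592 to 1806 and 233 to 7223 CPM. In sorted bulk RNA, fewer cells of a type and less RNA per cell cannot be told apart. Header identifiers of the treated libraries start with 19 and those of the controls with 20, a split that, if it marks batches, cannot be told apart from treatment.

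None of the receptors passed the test between treated and control libraries, and by mean level they fell into abundant and scarce ones. Ltb4r1, C3ar1, C5ar1 and Ccr1 were abundant by mean level and detected in all 11 libraries. Cxcr2, Fpr1, Fpr2, Cxcr4 and Ptgdr2 were lower by mean level and varied widely within each group, and Hrh4 was not detected. The split did not hold in every library. In control 3 Fpr1 (182 CPM, exon length 1324 bases) lay above C3ar1 (165 CPM, exon length 4305 bases). Per length Cxcr2 (164 CPM, exon length 3048 bases) lay above C3ar1 there too. Per length Fpr1 was also above Ccr1 (exon length 2833 bases) in control 3 (182 and 238 CPM) and treated 5 (54.8 and 83.9 CPM). In treated 6 Fpr1 was above C3ar1 per length (59.8 and 186 CPM). Of the 10 genes, 9 passed the filter on low counts, and 0 of these 9 passed edgeR's quasi-likelihood test at an adjusted p of 0.05, as did 0 of all 11389 genes tested (0% higher and 0% lower). At an unadjusted p under 0.05 there were 2 of 9, Ccr1 and C5ar1, against 6.82% of all genes. DESeq2 called 0 of the receptors and 0.611% of 12933 genes. In 0 of 9 did the groups not overlap, against 0.509% of all genes with treated libraries higher and 0.43% with treated libraries lower. The fitted log2 fold change was above 0 for 2 of the 9 and below 0 for 7, with a median of -0.37, against 51.8% above 0 and a median of 0.03 over all genes. Without control 3 and control 4 it was above 0 for 4 of the 9, with a median of -0.07, against 55.1% and a median of 0.10 over all genes. A p that misses the threshold does not show that the levels were alike.

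**Figure D1:**
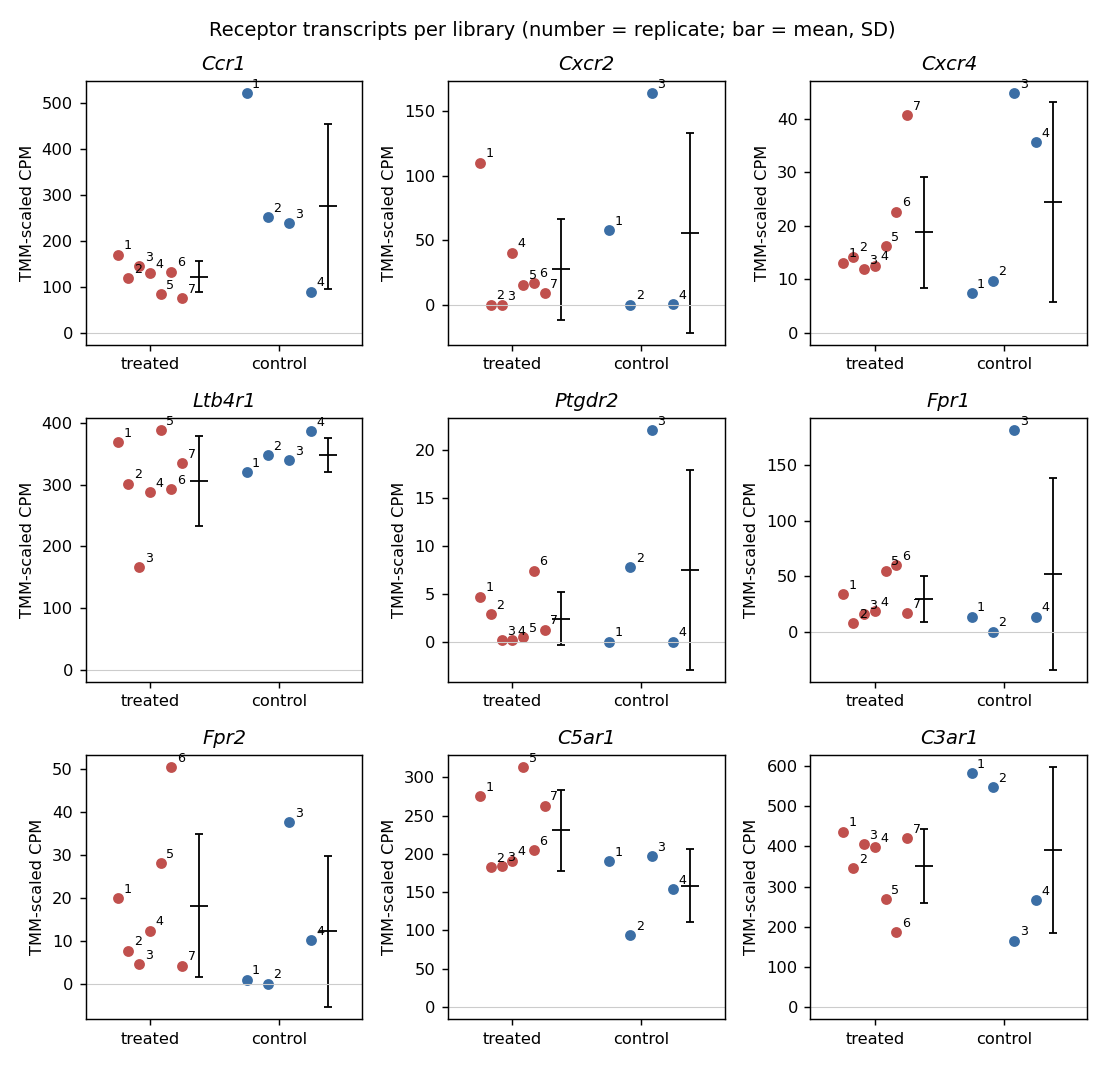
TMM-scaled CPM of the 9 detected receptors, 1 panel per gene and 1 point per library, with treated libraries left of controls; numbers at the points are replicate numbers, and the bars give mean and SD (n = 7 and n = 4). The groups overlap in every panel, and control 3 is the highest library for Cxcr2, Cxcr4, Ptgdr2 and Fpr1.

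Among the chemokine receptors, Ccr1 (chromosome 9, 123962124 to 123968692, GRCm38) had the smallest p-value. It stood at 74.6, 129 and 170 CPM (lowest, median and highest of 7) in treated libraries, against 521, 251, 238 and 89.1 CPM in control 1 to control 4. Controls 1, 2 and 3 lay above every treated library, while control 4 lay within the treated range. The means were 122 ± 33.4 CPM over treated mice (SD, n = 7) and 275 ± 180 CPM over control mice (SD, n = 4). The fitted difference was 0.443-fold with a 95% interval from 0.260 to 0.756, a log2 fold change of -1.17 with an SE of 0.36 (edgeR, unadjusted p = 0.00553). Its edgeR adjusted p was 0.626. Control 1 carried much of the size: without it the log2 fold change was -0.66 (adjusted p = 0.489, edgeR), and without control 3 and control 4 it was -1.63 (adjusted p = 0.0854, edgeR). It was below 0 in all 25 alternative fits, of which the one with the letters of the sample identifiers sets treated 1 alone against the controls. The reads behind Ccr1 ran from 245 to 4109 counts per library.

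Cxcr2 (chromosome 1, 74153989 to 74161246) was close to absent in some libraries and abundant in others of the same group. In treated 1 to treated 7 it stood at 109.9, 0.158, 0, 40.5, 15.8, 17.1 and 9.19 CPM. The levels of control 1 to control 4 were 58.0, 0.141, 164 and 0.727 CPM. Treated 2, treated 3, control 2 and control 4 had between 0 and 2 counts, so each group held libraries with almost none of the transcript and libraries with much of it. The log2 fold change was -1.01 ± 1.55 (SE; adjusted p = 0.950, edgeR), and its 95% interval ran from -4.38 to 2.36. It was 0.45 without control 3 and -0.07 without control 3 and control 4 (adjusted p = 0.993 and 0.996, edgeR). Some neutrophil transcripts followed it in part and the most abundant one did not. S100a8, a calcium-binding protein abundant in neutrophils, stood at 382 CPM in treated 1. In control 3 and control 1 it stood at 1475 and 380 CPM. In the 4 libraries almost without Cxcr2 it was at 21.3 CPM or less, while treated 7 had 15.9 CPM with 9.19 CPM of Cxcr2. It was lower in treated 4 (81.2 CPM) than in treated 5 and treated 6 (289 and 203 CPM), though treated 4 had more Cxcr2. Csf3r, another of the neutrophil markers, was at 16.7 CPM or less in the same 4 libraries almost without Cxcr2. It stood at 25.5 CPM in control 1, against 110 CPM in treated 5 and in treated 6. Ly6g, the neutrophil antigen of the sort gate, had counts in 3 of 11 libraries, treated 1, control 1 and control 3. These were the 3 with the highest Cxcr2. Their header identifiers carry the same letters as those of control 2 and control 4, which had no Ly6g counts. Treated 2 to treated 7 carry other letters, and what the letters mark is not given. Retnlg stood highest in control 4, at 15651 CPM, and at 12086 CPM in treated 2, both almost without Cxcr2, and lowest in control 1, at 4201 CPM. The part of neutrophil RNA in the level of Cxcr2 was not tested.

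Cxcr4 (chromosome 1, 128588199 to 128592293) was detected in every library at low level. Treated libraries 1 to 7 had 13.1, 14.2, 11.9, 12.5, 16.2, 22.6 and 40.7 CPM, and control 1 to control 4 had 7.36, 9.76, 44.9 and 35.6 CPM. The 3 high libraries were control 3, control 4 and treated 7, and the other treated libraries all lay above control 1 and control 2. Control 3 and control 4 were also the libraries with the high haemoglobin share. They had the highest platelet marker sums as well (7223 and 5885 CPM). Treated 7 had the lowest haemoglobin share of the treated group, 1.16%, and its lowest platelet marker sum, 592 CPM. The part of erythroid or platelet RNA in the level of Cxcr4 was not tested. For Cxcr4 the log2 fold change was -0.37 ± 0.56 (SE; adjusted p = 0.950, edgeR), and without control 3 and control 4 it turned to 1.17 ± 0.64 (adjusted p = 0.633, edgeR).

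Of the mediator receptors, Ltb4r1 (chromosome 14, 55765962 to 55768494) had the smallest SD relative to its mean over the 11 libraries. It stood at 166, 302 and 389 CPM (lowest, median and highest of 7) in treated libraries, against 320, 348, 340 and 386 CPM in control 1 to control 4. Treated 3 was the low library. Means were 306 ± 72.7 CPM over treated mice (SD, n = 7) and 349 ± 27.7 CPM over control mice (SD, n = 4), and the log2 fold change was -0.19 with an SE of 0.22 (edgeR, adjusted p = 0.937). The 95% interval of the fold was 0.631 to 1.22.

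Ptgdr2 (chromosome 19, 10937160 to 10942511), the CRTH2 receptor for prostaglandin D2, was the least abundant detected receptor per length. Treated 1 to treated 7 had 4.69, 2.84, 0.147, 0.118, 0.435, 7.37 and 1.23 CPM, and control 1 to control 4 had 0, 7.78, 22.0 and 0 CPM. That is 0 to 55 counts per library, with high and low libraries in each group. A count of 0 allows up to 0.446 CPM of the library total in control 1 and 0.765 CPM in control 4 (3 counts, counting error only). Its log2 fold change was -1.62 ± 1.49 (SE; adjusted p = 0.915, edgeR), and it was -0.07 without control 3 and -0.64 without control 3 and control 4 (adjusted p = 0.996 and 0.975, edgeR). Exons of Ccdc86, on the opposite strand, cover 1031 bases or 39.0% of the exon length of Ptgdr2. Since the strand setting of the counting is not given, reads of Ptgdr2 and Ccdc86 may have been shared or lost there. Ccdc86 had 66 to 208 counts in every library, including control 1 and control 4, where Ptgdr2 had none.

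Hrh4 (chromosome 18, 13006990 to 13022882), the histamine H4 receptor, had 0 counts in all 11 libraries. Over the group totals this allows a level of up to 0.0641 CPM for treated and 0.144 CPM for control mice (3 counts over the group, counting error only).

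The formyl peptide receptors differed widely between libraries of both groups. Fpr1 (chromosome 17, 17876471 to 17883940) had 33.7, 7.58, 15.6, 18.2, 54.8, 59.8 and 16.7 CPM in treated 1 to treated 7, and 13.2, 0, 182 and 13.5 CPM in control 1 to control 4. Control 3 alone lay above all treated libraries and control 2 alone below them, and the means were 29.5 ± 20.6 CPM over treated mice (SD, n = 7) and 52.0 ± 86.5 CPM over control mice (SD, n = 4). The log2 fold change was -0.81 ± 1.10 (SE; adjusted p = 0.940, edgeR), and it turned to 1.76 without control 3 (adjusted p = 0.770) and 2.18 without control 3 and control 4 (adjusted p = 0.635, edgeR). Fpr2 (chromosome 17, 17887824 to 17893952) had 20.005, 7.74, 4.56, 12.4, 28.1, 50.4 and 4.25 CPM in treated 1 to treated 7, and 1.01, 0, 37.7 and 10.2 CPM in control 1 to control 4. Treated 6, control 3 and treated 5 were the 3 highest libraries for both genes, and control 2 had 0 counts of either. The log2 fold change of Fpr2 was 0.60 ± 1.12 (SE; adjusted p = 0.955, edgeR), and 5.13 ± 1.47 without control 3 and control 4 (adjusted p = 0.290), where the control group is 8 counts in control 1 and none in control 2. Per length Fpr1 was above Fpr2 in 9 of 11 libraries.

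Reads could be shared between the 2 formyl peptide receptors in 1 word of 50 bases only, of 1275 in Fpr1 and 1295 in Fpr2. Fpr2 shared 31.5% of its words of 50 bases with other annotated genes, mainly 368 with Gm5966 and 82 with Fpr3. Both of those genes had 0 counts in every library. The counts of Fpr2 are uncertain to that degree, and so are its level per length, its place in the order and its comparison with Fpr1. Of Cxcr2, 6.68% of words of 50 bases occurred in transcripts of other genes. Ccr1, Cxcr4, Hrh4, Ltb4r1, C5ar1 and C3ar1 shared none.

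Of the complement receptors, C5ar1 (chromosome 7, 16246743 to 16259540) stood at 182, 205 and 313 CPM (lowest, median and highest of 7) in treated libraries, against 190, 93.8, 197 and 153 CPM in control 1 to control 4. The 4 highest libraries were all treated and the 2 lowest were controls, and the ranges met between 182 and 197 CPM. Means were 231 ± 52.6 CPM over treated mice (SD, n = 7) and 159 ± 47.2 CPM over control mice (SD, n = 4). The fitted difference was 1.46-fold with a 95% interval from 1.00 to 2.11, a log2 fold change of 0.54 with an SE of 0.25 (edgeR, unadjusted p = 0.0485). Its edgeR adjusted p was 0.727. Without control 2 the log2 fold change was 0.36 (unadjusted p = 0.169, edgeR), and with DESeq2 it was 0.51 (unadjusted p = 0.0605). It lay above 0 in all 25 alternative fits, at 0.36 to 0.73 in 24 of them. In the fit with the identifier letters it was 0.80. These fits reuse the same libraries and are not independent of each other.

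C3ar1 (chromosome 6, 122847138 to 122856161) had 437, 346, 406, 399, 269, 186 and 420.5 CPM in treated 1 to treated 7, and 583, 548, 165 and 265 CPM in control 1 to control 4. Control 1 and control 2 were the highest of all libraries, while control 3, treated 6, control 4 and treated 5 were the lowest. Means were 352 ± 92.7 CPM over treated mice (SD, n = 7) and 391 ± 207 CPM over control mice (SD, n = 4), and the log2 fold change was -0.15 with an SE of 0.33 (edgeR, adjusted p = 0.966). Without control 3 and control 4 it was -0.65 ± 0.29 (adjusted p = 0.581), and without control 1 or control 2 it turned above 0 (0.11 and 0.06, edgeR).

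**Figure D2:**
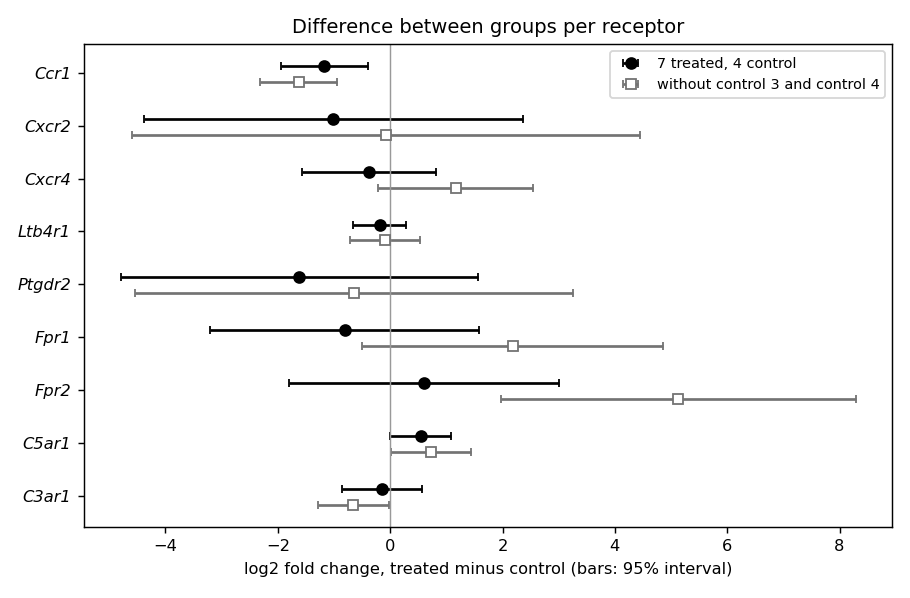
Log2 fold change, treated minus control, of each tested receptor with its 95% interval, from all 11 libraries (filled) and without control 3 and control 4 (open). The intervals of Ccr1 and C5ar1 lie on one side of 0 in both fits and those of Fpr2 and C3ar1 only in the second, while those of Cxcr2, Ptgdr2, Fpr1 and Fpr2 each span several log2 units.

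Levels can be compared between receptors only per length, so CPM were divided by the exon length of each gene in kb. Over all 11 libraries Ltb4r1 was highest at 231 ± 44.6 CPM per kb (SD, n = 11), followed by C3ar1 at 85.0 ± 31.5, C5ar1 at 79.5 ± 23.5 and Ccr1 at 62.7 ± 45.1 CPM per kb. These 4 together took 78.4% to 95.2% of the summed level of the receptors in treated and 63.6% to 98.4% in control libraries. Fpr1 averaged 28.5 ± 38.7, Cxcr2 12.4 ± 17.6, Fpr2 12.4 ± 12.6, Cxcr4 11.5 ± 7.37 and Ptgdr2 1.60 ± 2.49 CPM per kb (SD, n = 11). By group, C5ar1 had 89.7 ± 20.5 CPM per kb in treated (SD, n = 7) and 61.7 ± 18.4 in control libraries (SD, n = 4), and Ccr1 had 43.1 ± 11.8 and 97.0 ± 63.5, so that the order of these receptors by mean differed between the groups. The lower part of the order rested on control 3. Without it, in an alternative added after seeing the data, Fpr1 averaged 17.6 ± 14.999, Fpr2 10.7 ± 12.0, Cxcr4 10.2 ± 6.22, Cxcr2 8.25 ± 11.7 and Ptgdr2 0.931 ± 1.17 CPM per kb (SD, n = 10), which put Cxcr2 below Fpr2 and Cxcr4.

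Neighbours in the order over all 11 libraries were compared within libraries by exact two-sided permutation of the signs of the log2 differences over 11 libraries, with p-values adjusted over 8 pairs. The neighbours were taken from the same means, so these p-values describe the order and are no independent test of it. Ltb4r1 was above C3ar1 and Cxcr4 above Ptgdr2 in 11 of 11 libraries (exact p = 0.000977, the smallest this test can give, adjusted p = 0.00391 for both). Ccr1 was above Fpr1 in 9 of 11 libraries (adjusted p = 0.0234, exact permutation) and Fpr1 above Cxcr2 in 8 of 11 (adjusted p = 0.0410, exact permutation). C3ar1 and C5ar1 (adjusted p = 0.827) and C5ar1 and Ccr1 (0.220) did not differ beyond their spread by the same exact test. Neither did Cxcr2 and Fpr2 or Fpr2 and Cxcr4 (adjusted p = 0.313 for both, exact permutation). In these last pairs the mean log2 difference ran against the order of the means (-1.13 and -0.79). Cxcr2 was above Fpr2 in 5 of 11 libraries, and Fpr2 above Cxcr4 in 5 of 11.

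**Figure D3:**
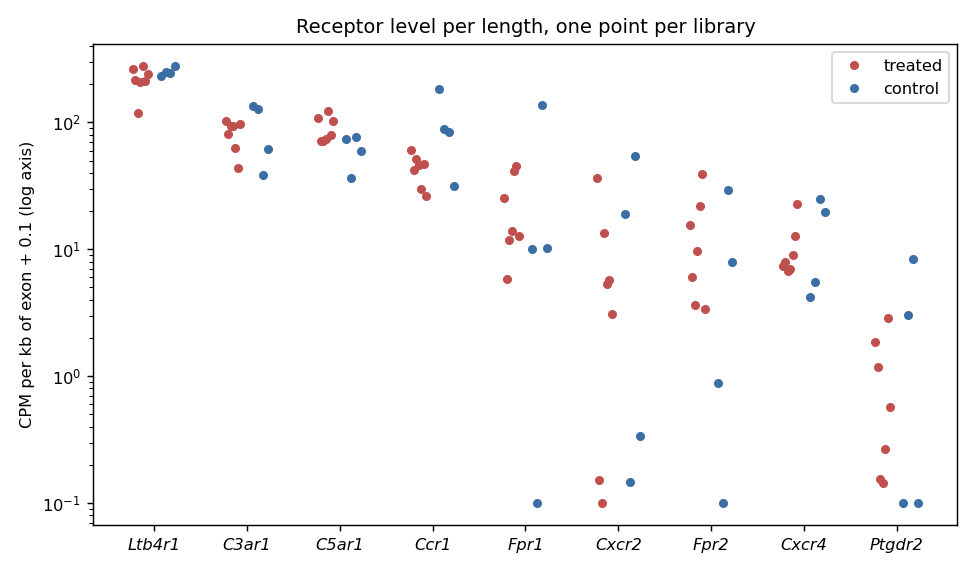
CPM per kb of exon plus 0.1, on a log axis, for the 9 detected receptors in order of their mean, 1 point per library, treated left of control for each gene. Points at 0.1 are libraries without counts. Ltb4r1 is the highest receptor in all 11 libraries, and the points of Fpr1, Cxcr2, Fpr2 and Ptgdr2 spread more widely than those of the 4 highest receptors.

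Within the 7 treated libraries each receptor was set against the log2 summed level of the monocyte and macrophage markers and of the neutrophil markers, 18 relations in all. None passed adjustment over the 18. The smallest p against the monocyte and macrophage level was that of Fpr2 (Pearson r = 0.838, exact permutation p = 0.0151, adjusted p = 0.136; Spearman rho = 0.821, exact permutation p = 0.0341, adjusted p = 0.298), and r was 0.571 once the 2 libraries most distant from the median were left out. C3ar1 had a negative r (r = -0.817, exact permutation p = 0.0232, adjusted p = 0.139; rho = -0.714, exact permutation p = 0.0881, adjusted p = 0.317), with r = -0.727 without the 2 farthest. For Fpr1 r was 0.655 (exact permutation p = 0.106, adjusted p = 0.381; rho = 0.750, exact permutation p = 0.0663, adjusted p = 0.298), and 0.680 without the 2 farthest. With CPM of the library total r was 0.826 for Fpr2 (adjusted p = 0.343, exact permutation) and 0.394 without the 2 farthest. For C3ar1 it was then -0.649 (adjusted p = 0.521, exact permutation) and -0.424 without the 2 farthest. For Fpr1 it was 0.663 (adjusted p = 0.521, exact permutation) and 0.591 without the 2 farthest. With the mean log2 CPM over each list in place of the summed level, an alternative chosen after seeing the data, the r of Fpr2 was 0.758 against the monocyte and macrophage list and 0.826 against the neutrophil list (adjusted p = 0.229 for both, exact permutation), and that of Fpr1 was 0.528 and 0.768 (adjusted p = 0.426 and 0.229, exact permutation). The r of Fpr2 against the monocyte and macrophage list then was 0.0846 without the 2 farthest, and that of C3ar1 turned to 0.130. The 2 libraries farthest out on the summed level include treated 6 with the most monocyte transcripts, 16059 CPM summed, of which Lyz2, the lysozyme of myeloid cells, made up 10598 CPM.

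Ltb4r1 had the smallest p against the neutrophil level (r = 0.807, exact permutation p = 0.00456, adjusted p = 0.0821; rho = 0.893, exact permutation p = 0.0123, adjusted p = 0.221; r = 0.596 without the 2 farthest). That level is mostly Retnlg, and with the mean log2 CPM over the neutrophil list in its place r was 0.724 (adjusted p = 0.229, exact permutation). With CPM of the library total r was 0.683 (adjusted p = 0.521, exact permutation), rho was 0.250 (exact permutation p = 0.595) and r without the 2 farthest was 0.255. Within the treated group Retnlg was lowest in treated 3, treated 4 and treated 6 (4517, 4994 and 7011 CPM). The summed eosinophil markers were lowest there too (4823, 6802 and 6871 CPM). Treated 7 had the most Retnlg (13695 CPM), with 4770 CPM of Ccr3 and 15.9 CPM of S100a8. The highest eosinophil sum was that of treated 1 (13106 CPM), with 10864 CPM of Retnlg. Whether the r of Ltb4r1 reflects neutrophil or eosinophil RNA was not tested. Cxcr2 had r = 0.199 against the summed neutrophil level (exact permutation p = 0.653, adjusted p = 0.955) and r = 0.747 against the mean log2 level (exact permutation p = 0.0671, adjusted p = 0.241). The part of other cells' RNA in the differences between libraries was not tested further.

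**Figure D4:**
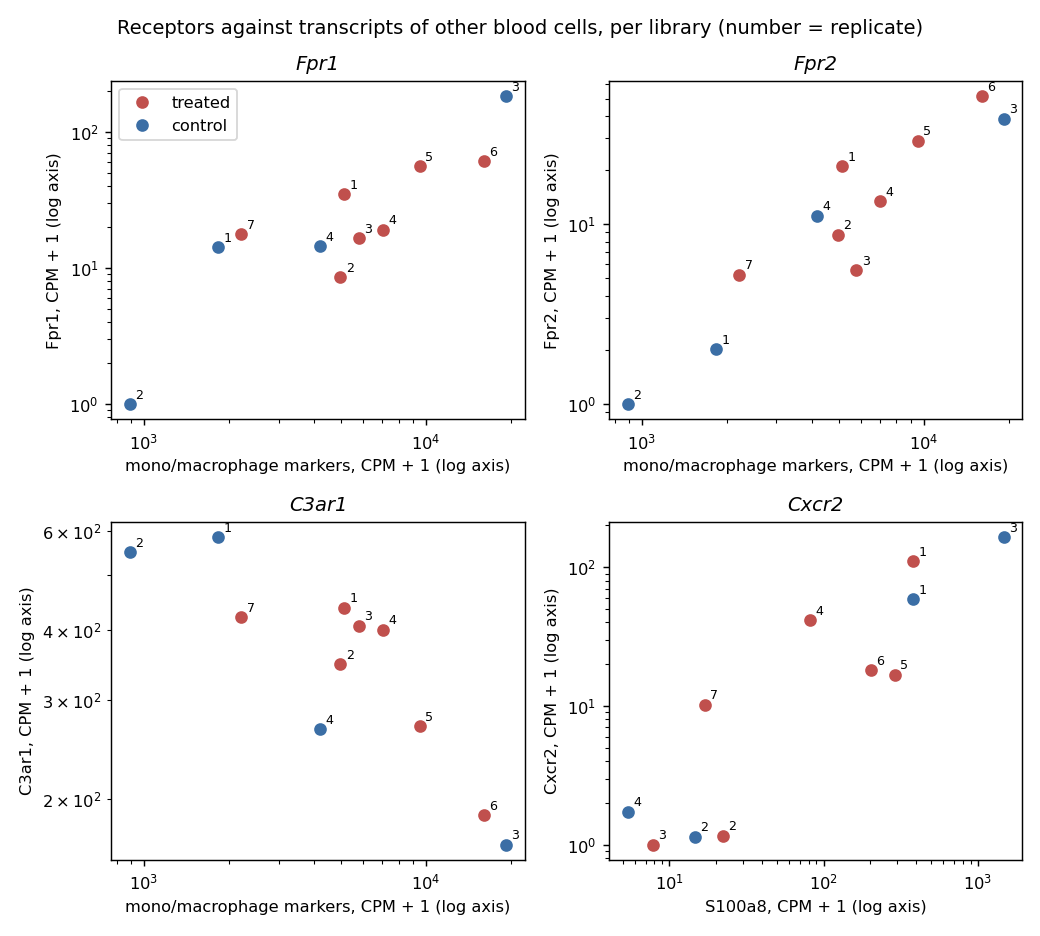
Fpr1, Fpr2 and C3ar1 (CPM + 1) against the summed monocyte and macrophage markers, and Cxcr2 against S100a8, on log axes, 1 point per library with its replicate number. Control 3 and treated 6 have the most monocyte transcripts, high Fpr1 and Fpr2 and the lowest C3ar1, and the 4 libraries with 2 or fewer Cxcr2 counts are at the low end of S100a8.

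The genes most alike to each receptor over the 11 libraries, by Pearson r of log2(CPM + 1) among 11388 gene symbols, are given as a description. The libraries share depth, haemoglobin share and other cells' RNA, which enter every r. For Fpr1 they were Clec4a1 (r = 0.953), Lrp1 (0.943) and Clec4e (0.942), of which the C-type lectins Clec4a1 and Clec4e are known from myeloid cells. For Fpr2 they were Tifab (0.982), Abi3 (0.973) and Ace (0.971), and for Cxcr2 they included S100a8 (0.900) and Gstp3 (0.890). C3ar1 was most alike to Stk26 (0.934), Siglecg (0.914) and Gm34455 (0.913). Ltb4r1 was most alike to Vta1 (0.954), Dbnl (0.929) and Gm14548 (0.915), and C5ar1 to Ctns (0.918), Ssh2 (0.902) and Tapbpl (0.887). For Ccr1 they were Pgam1 (0.929), Nat9 (0.826) and Vmn2r84 (0.822), for Cxcr4 Cdc42ep5 (0.886), Tmem40 (0.877) and Rnf14 (0.872), and for Ptgdr2 Gm26616 (0.963), Clec4a4 (0.893) and Gm8210 (0.883).

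Other chemoattractant receptors, ligands and signalling genes did not pass the test either. Of 37 other receptors 23 were tested, 14 of them with a log2 fold change above 0 (median 0.10), and 0 passed. Without control 3 and control 4 it was 18 of 26 (median 0.84), and 0 passed. Ccr3 stood at 2819 ± 1238 CPM over treated mice (SD, n = 7) and 3210 ± 1116 CPM over control mice (SD, n = 4), and Ptafr, the platelet-activating factor receptor, at 1012 ± 312 and 904 ± 289 CPM. Ccr2, the receptor of inflammatory monocytes, stood at 164 ± 169 and 118 ± 143 CPM. The receptors Ccr4, Ccr8, Ccr10, Ptgdr, Fpr3, Fpr-rs3 and Fpr-rs4 had 0 counts in all 11 libraries.

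Of 27 ligands and enzymes that make them 16 were tested, 6 with a log2 fold change above 0 (median -0.32), and 0 passed. Without control 3 and control 4 it was 10 of 19 (median 0.26), so the direction of the median turned, and 0 passed. The Ccr1 ligand Ccl6 was among the most abundant, at 14431 ± 5427 CPM over treated mice (SD, n = 7) and 17316 ± 6013 CPM over control mice (SD, n = 4). Anxa1, which encodes the Fpr2 ligand annexin A1, stood at 1746 ± 609 and 1659 ± 747 CPM. Ppbp, a platelet chemokine that binds Cxcr2, stood at 745 ± 395 and 2141 ± 2396 CPM, and its log2 fold change was -1.52, or 3.30 without control 3 and control 4. The Cxcr4 ligand Cxcl12 and the Cxcr2 ligands Cxcl1 and Cxcl3 had 0 counts in all libraries.

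Of 33 G protein and effector genes 32 were tested, 24 with a log2 fold change above 0 (median 0.24), and 0 passed. It was again 24 of 32 (median 0.21) without control 3 and control 4. Rac2, the Rac GTPase of blood cells, stood at 1878 ± 378 CPM over treated mice (SD, n = 7) and 1850 ± 253 CPM over control mice (SD, n = 4), Cdc42 at 1514 ± 251 and 1507 ± 203 CPM, and Prkcd at 740.2 ± 182 and 573 ± 75.2 CPM. At an unadjusted p under 0.05 there were 6 higher and 1 lower, against 3.7% and 3.13% of all genes, with the exchange factor Prex1 at 176 ± 45.9 and 102 ± 11.7 CPM (log2 fold change 0.78, adjusted p = 0.626, edgeR; named after its values were seen). Of 17 genes of receptor desensitisation 16 were tested, 6 with a log2 fold change above 0 (median -0.10), and 0 passed. It was 7 of 16 (median -0.03) without control 3 and control 4. Rgs2, a regulator that shortens G protein signals, stood at 1151 ± 280.1 CPM over treated mice (SD, n = 7) and 1562 ± 525 CPM over control mice (SD, n = 4), Rgs18 at 608 ± 252 and 1131 ± 526 CPM, and Rgs19 at 396 ± 87.2 and 366 ± 65.1 CPM. The log2 fold change of Rgs18 was -0.90, or -0.14 without control 3 and control 4.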

How the data were processed

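Sorted blood eosinophils were sequenced with Smart-seq2, and the deposited table holds raw read counts per gene, made by the authors with bcl2fastq 2.20.0.422, HISAT2 2.10 and SAMtools 1.15.1 on GRCm38, per the submitters' processing notes. Which program counted the reads, with which strand setting and gene annotation, is not given in the sources used here. A row without a gene name held 0 counts. Groups were taken from the labels.

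Counts were scaled by TMM, genes with low counts were removed with filterByExpr, and treated was compared with control by edgeR 4.0.16 (robust quasi-likelihood test in R 4.3.3, all 11 libraries, no covariate), and p-values were adjusted after Benjamini-Hochberg over 11389 genes (threshold 0.05). The SE of a log2 fold change is its size divided by the square root of F. The test was checked on simulated data. DESeq2 1.42.0 and limma 3.58.1 (voom), other scalings, filters and covariates, and leaving out each library were alternatives. Correlations used log2(CPM + 1), and exact permutation tests used Python 3.11.15. Exon lengths came from GENCODE, matched by identifier for 55140 genes. Promoters came from RefSeq. Total counts were 3733156 to 8016658 per library, and floors cover counting error only, since the reads carry no molecular identifiers.

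The receptors and gene lists were chosen with earlier results of these data known. Genes outside the receptors were named as the 3 most abundant of each pathway list, the 3 most alike to each receptor, or markers of other cells, except where said. One gene that this rule names is not reported here. Replicate numbers 1 to 4 occur in both groups, but same-numbered libraries did not deviate together, so no block was used.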

Additional observations from a re-analysis of the deposited data

Results flagged for a closer look

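In 3 of 18 groups of libraries checked, 1 library lay far from the rest by Dixon's criterion at the 95% level, which chance alone meets in some groups. Cxcr2 stood at 109.9 CPM in treated 1, with the next treated library at 40.5 CPM. Treated 1 is also the lone treated library that shares identifier letters with the controls. Cxcr4 stood at 40.7 CPM in treated 7, with the next treated library at 22.6 CPM. Fpr1 stood at 182 CPM in control 3, with the next control library at 13.5 CPM. Control 3 also had the most monocyte and macrophage transcripts, 19208 CPM summed, and 28.2% of its counts on haemoglobin genes. The part of these in the level of Fpr1 was not tested.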

How the results depend on the processing

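No receptor passed the threshold in any alternative run. DESeq2 called 57 genes higher and 22 lower over all genes, where edgeR called none, and the cause was not tested. Ccr1 and C5ar1 kept their direction in all 25 alternatives, which reuse the same libraries. The log2 fold change changed sign with limma-voom for Cxcr2 (0.43), Cxcr4 (0.57), Ptgdr2 (1.03) and Fpr1 (2.86). With detected genes as a covariate it changed sign for Cxcr4 (0.81) and Fpr1 (0.90), with the neutrophil level for Cxcr4 (0.050), and with the monocyte level for C3ar1 (0.36), where the median of all genes moved to 0.18 from 0.03. With the replicate block it changed sign for Cxcr2 (0.50), Fpr1 (0.83) and C3ar1 (0.19). The replicate numbers did not pair the libraries (r of -0.04, 0.02, -0.11 and -0.05), and with the same libraries and no block, added after seeing the data, Fpr2 was at -0.12 and C3ar1 at 0.022. With the letters of the sample identifiers as a covariate, also added later, treated 1 is the lone treated library that shares letters with the controls, so the fit rests on it; there Cxcr2 was at 0.99, Ltb4r1 at 0.081 and C3ar1 at 0.16. Without control 3 and control 4, Cxcr4 was at 1.17 and Fpr1 at 2.18. Leaving out each library in turn gave -1.46 to -0.66 for Ccr1, -1.995 to 0.45 for Cxcr2, -0.69 to 0.15 for Cxcr4, -2.23 to -0.07 for Ptgdr2, -0.26 to -0.08 for Ltb4r1, -1.22 to 1.76 for Fpr1, 0.08 to 2.41 for Fpr2, 0.36 to 0.68 for C5ar1 and -0.39 to 0.11 for C3ar1. Ptgdr2 was not tested under the stricter filter. With the mean log2 marker level, the r against neutrophil markers was 0.17 for Ccr1 and -0.012 for Cxcr4. With CPM of the library total it was -0.016 for Fpr1, and r against monocyte markers was 0.029 for Ltb4r1, while Fpr2 moved ahead of Cxcr2 in the order per length. Ptgdr2 had 224 counts in all, which limits the precision of its values.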
